A study of Mus musculus with 32 samples.

Results

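The genes described here encode the chaperones and folding enzymes of the endoplasmic reticulum (ER) and XBP1, a transcription factor of the unfolded protein response. They are the 10 genes Xbp1, Hspa5, Hyou1, Dnajb9, Dnajb11, Sdf2l1, Hsp90b1, Pdia4, Pdia6 and Manf, chosen by name with earlier results of these data known. All probe sets that the platform's probe table gives to one of these symbols alone were taken, 20 of the 34945 probe sets with a single gene. For a test per gene, the probe set with the highest mean over all arrays stood for its gene, so that the 10 genes were 10 of 18193. RNA came from the striatum of male mice aged 12 weeks of a cross of CBA and C57Bl/6. The groups, dissected 4 h after dosing by oral gavage, were R6/2 mice given HSP990 (8 arrays), R6/2 mice given vehicle (7 arrays), wild-type (WT) mice given HSP990 (10 arrays) and WT mice given vehicle (7 arrays). HSP990 is an orally active inhibitor of the chaperone HSP90, given at 12 mg/kg as a suspension in a saline formulation, and vehicle was that formulation alone. R6/2 mice, a model of Huntington's disease, carry a fragment of the human huntingtin gene with an expanded CAG repeat as a transgene under the human promoter, so the R6/2 and WT groups differ in that transgene and not in the treatment. The design asks how HSP90 inhibition changes striatal RNA in each genotype, and how R6/2 striatum differs from WT striatum.

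Secreted and membrane proteins fold in the ER. When unfolded proteins build up there, the sensor IRE1 (gene Ern1) splices Xbp1 mRNA, whose product switches on ER chaperone and degradation genes, together with the sensor ATF6. The central chaperone is BiP (Hspa5), an HSP70 of the ER. It works with J-domain partners (Dnajb9, Dnajb11) and the exchange factor Hyou1. Hsp90b1 encodes GRP94, the HSP90 protein of the ER, and Pdia4 and Pdia6 encode disulfide isomerases.

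Deposited values were on a log2 scale, with array medians between 5.73 and 5.78, and all pairs of the 32 arrays correlated at r of 0.962 to 0.996 over all probe sets. The labelling kit primes from the 3′ end of RNA, so degraded RNA gives a larger gap between 3′ and 5′ control probe sets. That gap, averaged over control genes on the log2 scale, was 1.83 in R6/2 mice on HSP990, against 1.15 in R6/2 mice on vehicle, and 1.05 in WT mice on HSP990, against 1.42 in WT mice on vehicle. By Gapdh alone 2 arrays stood apart, R6/2 HSP990 replicate 5 (5.01) and WT vehicle replicate 5 (2.23). The labels give replicate numbers but no animal identifiers, so the p-values below measure the spread between these samples. All adjusted p-values come from a limma fit over the 18193 genes, or over the 34945 probe sets where probe sets are named, and a gene is called changed at an adjusted p under 0.05.

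The promoters of the ER chaperones are known for a composite element bound by NF-Y and ATF6 or XBP1, the ER stress response element. It was searched as CCAAT, 9 bases of any kind and CCACG, on both strands from 250 bases before to 50 bases after the start of each gene, in RefSeq promoters on GRCm38.p6. A second form was searched as ATTGG, 1 base and CCACG. Of the 10 genes, 8 were listed in that promoter table (Manf and Hyou1 were not), and 4 of those 8 held one of these forms, against 0.181% of the 27025 genes of the table. Hspa5 and Pdia6 held the first form once and Hsp90b1 held it at 2 places, once on each strand. Dnajb11 held the second form just after the start. Xbp1, Sdf2l1, Pdia4 and Dnajb9 held neither of these exact letter strings, and none of the 8 held TGACGTGG, the core of a further XBP1 element, which 0.714% of all listed genes held. Shown here are the promoters of the genes with an element that were called lower with HSP990, and that of Xbp1, the gene of the 10 with the largest fall in both genotypes. Capitals mark the element, and all read 5′ to 3′ on the plus strand, the coding strand of each gene. Xbp1 lies at chr11:5520391-5520690, Hspa5 at chr2:34771840-34772139 and Pdia6 at chr12:17266339-17266638, each of these windows being a promoter.
Xbp1: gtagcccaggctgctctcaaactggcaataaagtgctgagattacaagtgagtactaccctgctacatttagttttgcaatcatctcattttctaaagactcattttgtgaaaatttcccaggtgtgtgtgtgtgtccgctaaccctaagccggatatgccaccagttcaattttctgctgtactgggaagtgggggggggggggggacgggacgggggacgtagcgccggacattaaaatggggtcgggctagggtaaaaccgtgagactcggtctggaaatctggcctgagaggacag
Hspa5: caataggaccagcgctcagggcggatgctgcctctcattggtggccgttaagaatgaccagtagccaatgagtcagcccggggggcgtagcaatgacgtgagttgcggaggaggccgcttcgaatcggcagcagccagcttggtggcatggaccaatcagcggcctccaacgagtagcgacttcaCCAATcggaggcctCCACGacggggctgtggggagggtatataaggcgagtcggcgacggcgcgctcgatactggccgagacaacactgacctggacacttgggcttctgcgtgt
Pdia6: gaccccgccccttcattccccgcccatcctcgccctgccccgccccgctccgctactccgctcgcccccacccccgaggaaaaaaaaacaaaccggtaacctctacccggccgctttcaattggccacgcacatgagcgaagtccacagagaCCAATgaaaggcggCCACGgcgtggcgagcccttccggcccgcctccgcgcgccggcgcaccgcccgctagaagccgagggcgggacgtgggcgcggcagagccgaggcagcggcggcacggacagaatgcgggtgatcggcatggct
In Hspa5 the element covers bases -65 to -47 from the start, and in Pdia6 bases -98 to -80. Xbp1 has no capitals, since these letters are not in its window.

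In R6/2 mice, 5 of the 10 genes fell with HSP990, and none rose. The call rule gave 3.09% of all genes in this comparison, and 0.918% were called lower. The 5 were Xbp1, Manf, Sdf2l1, Pdia6 and Hspa5, with log2 changes between -0.53 and -0.32. The median change of all 10 genes was -0.26, against 0.02 over all genes tested. Of the 10 estimates, 8 lay below 0, as did 44% of those over all genes. At an unadjusted p under 0.05, 7 of the 10 were lower and 0 were higher, against 15.8% of all genes in either direction.

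Xbp1, the transcription factor, had log2 values between 10.48 and 11.00 with a median of 10.72 in R6/2 mice on HSP990, against 11.12 to 11.53 with a median of 11.23 in R6/2 mice on vehicle. The groups did not overlap, which held for 0.671% of all genes. Xbp1 fell by 0.53 ± 0.07 on the log2 scale (SE, adjusted p = 5.29e-06). Spliced and unspliced Xbp1 RNA were not told apart here.

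Hspa5, the gene of BiP, lay between 11.00 and 11.39 with a median of 11.21 in R6/2 mice on HSP990, against 11.38 to 11.75 with a median of 11.50 in R6/2 mice on vehicle. The highest HSP990 array and the lowest vehicle array met, and otherwise the groups were apart. Hspa5 fell by 0.32 ± 0.08 (adjusted p = 0.025). Manf encodes a secreted protein that binds BiP and was named for its trophic action on neurons. Its values were 8.92 to 9.45 with a median of 9.29 in R6/2 mice on HSP990, against 9.24 to 9.92 with a median of 9.72 in R6/2 mice on vehicle. The overlap came from the single lowest vehicle array, replicate 1, and Manf fell by 0.45 ± 0.09 (adjusted p = 0.00329).

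Sdf2l1, whose product partners with the J-domain protein of Dnajb11, ranged from 6.11 to 6.77 with a median of 6.51 in R6/2 mice on HSP990, against 6.52 to 7.69 with a median of 6.86 in R6/2 mice on vehicle. It fell by 0.43 ± 0.12 (adjusted p = 0.0464), close to the threshold, and the groups overlapped. Without vehicle replicate 7, the highest array, the change was -0.30 (adjusted p = 0.137), and 22 of the 32 fits that left out 1 array lost this call. Pdia6 encodes a disulfide isomerase that also binds IRE1. It lay between 8.19 and 8.97 with a median of 8.81 in R6/2 mice on HSP990, against 8.92 to 9.54 with a median of 9.09 in R6/2 mice on vehicle. It fell by 0.41 ± 0.11 (adjusted p = 0.0325), with every HSP990 array below the vehicle mean.

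The calls for Hspa5, Sdf2l1 and Pdia6 were lost once the 3′ bias entered the fit. R6/2 HSP990 replicate 5, the array with the strongest bias, was the lowest of its group for these 3 genes and for Manf. Without it, the adjusted p was 0.0568 for Hspa5, 0.102 for Sdf2l1 and 0.0745 for Pdia6. With the bias as a covariate the changes were -0.26 for Hspa5, -0.36 for Sdf2l1 and -0.29 for Pdia6 (adjusted p = 0.1, 0.155 and 0.14 in that order). Xbp1 and Manf kept their calls in that fit and without that array. Over the 11 other settings run, the adjusted p in R6/2 mice reached 0.0463 for Manf, against 0.00238 for Xbp1. The Hspa5 call was also lost without R6/2 vehicle replicate 3 (adjusted p = 0.0662). The Pdia6 call was lost without each of 6 arrays, with adjusted p reaching 0.0886 without R6/2 vehicle replicate 4.

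**Figure D1:**
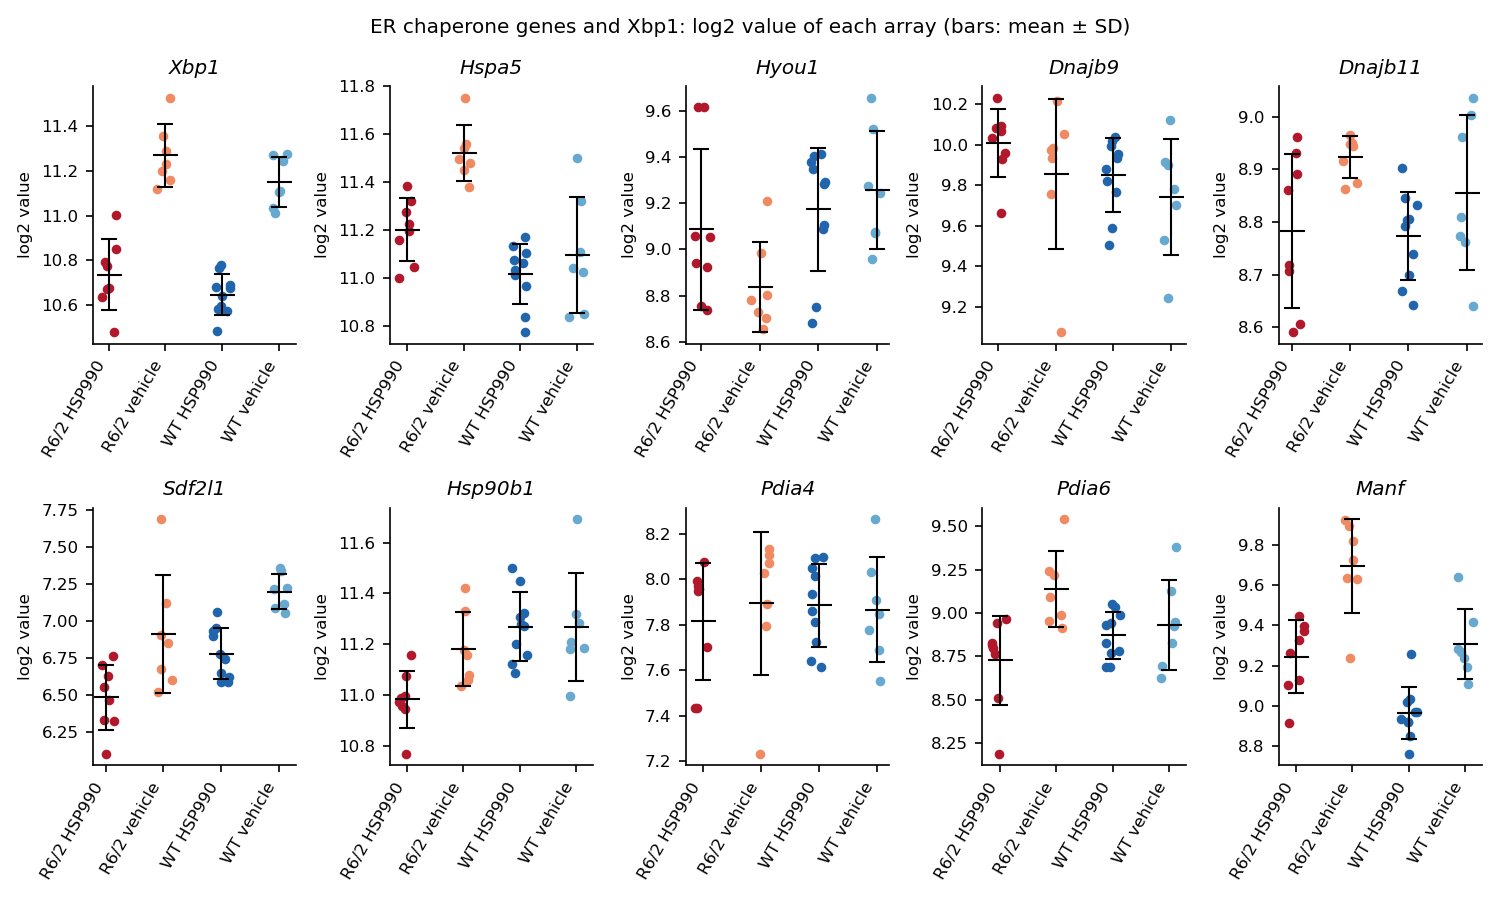
Log2 value of each array (y axis) for the 10 genes, by group (x axis); points are arrays, and black bars give the mean and SD. For Xbp1, both HSP990 groups lie at 11.00 or below and both vehicle groups at 11.01 or above.

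The other 5 genes did not pass the test in R6/2 mice. Hsp90b1 had a change of -0.20 ± 0.08 (adjusted p = 0.196) and Dnajb11, a co-chaperone of BiP, one of -0.14 ± 0.06 (adjusted p = 0.258). For Pdia4, which encodes a further disulfide isomerase, the change was -0.08 (95% interval -0.33 to 0.17). Dnajb9, whose product dampens IRE1, gave 0.15 (95% interval -0.11 to 0.41). Hyou1, the gene of the exchange factor for BiP, gave 0.25 (95% interval -0.03 to 0.53).

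In WT mice, 3 of the 10 genes fell with HSP990, again Xbp1, Sdf2l1 and Manf, and none rose. Over all genes, 5.80% were called in this comparison, and 3.57% were called lower. The median change of the 10 genes was -0.08, against -0.03 over all genes. At an unadjusted p under 0.05 the same 3 genes were lower and 0 were higher, against 18.5% of all genes in either direction. Xbp1 lay between 10.48 and 10.78 with a median of 10.66 in WT mice on HSP990, against 11.01 to 11.28 with a median of 11.11 in WT mice on vehicle. It fell by 0.50 ± 0.07 (adjusted p = 2.62e-06), with no overlap, as for 1.47% of all genes. In both genotypes together, every HSP990 array had a lower value on this Xbp1 probe set than every vehicle array. The margin was narrow, with 11.00 as the highest HSP990 value and 11.01 as the lowest vehicle value. How many of all genes were parted in this way was not counted. The other Xbp1 probe sets overlapped over both genotypes. The next brightest had 9.88 in R6/2 HSP990 replicate 6, against 9.48 in R6/2 vehicle replicate 1.

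Sdf2l1 had values of 6.59 to 7.06 with a median of 6.76 in WT mice on HSP990, against 7.06 to 7.36 with a median of 7.22 in WT mice on vehicle. The groups met only at their edges, and Sdf2l1 fell by 0.42 ± 0.12 (adjusted p = 0.0247). Without WT vehicle replicate 5, the second array of strong 3′ bias, its adjusted p was 0.0541. Manf lay between 8.76 and 9.26 with a median of 8.95 in WT mice on HSP990, against 9.11 to 9.64 with a median of 9.27 in WT mice on vehicle. It fell by 0.34 ± 0.09 (adjusted p = 0.0139), with every HSP990 array below the vehicle mean. With arrays centred on their median, the adjusted p was 0.0594 for Sdf2l1 and 0.0502 for Manf.

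The remaining 7 genes did not pass the test in WT mice. Hspa5 had an estimate of -0.08 (95% interval -0.24 to 0.08) and Pdia6 one of -0.06 (95% interval -0.28 to 0.15). Hsp90b1 stood at 0.00 (95% interval -0.15 to 0.16) and Pdia4 at 0.02 (95% interval -0.22 to 0.26). Dnajb11 and Hyou1 had estimates of -0.08 each, and Dnajb9 one of 0.11.

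**Figure D2:**
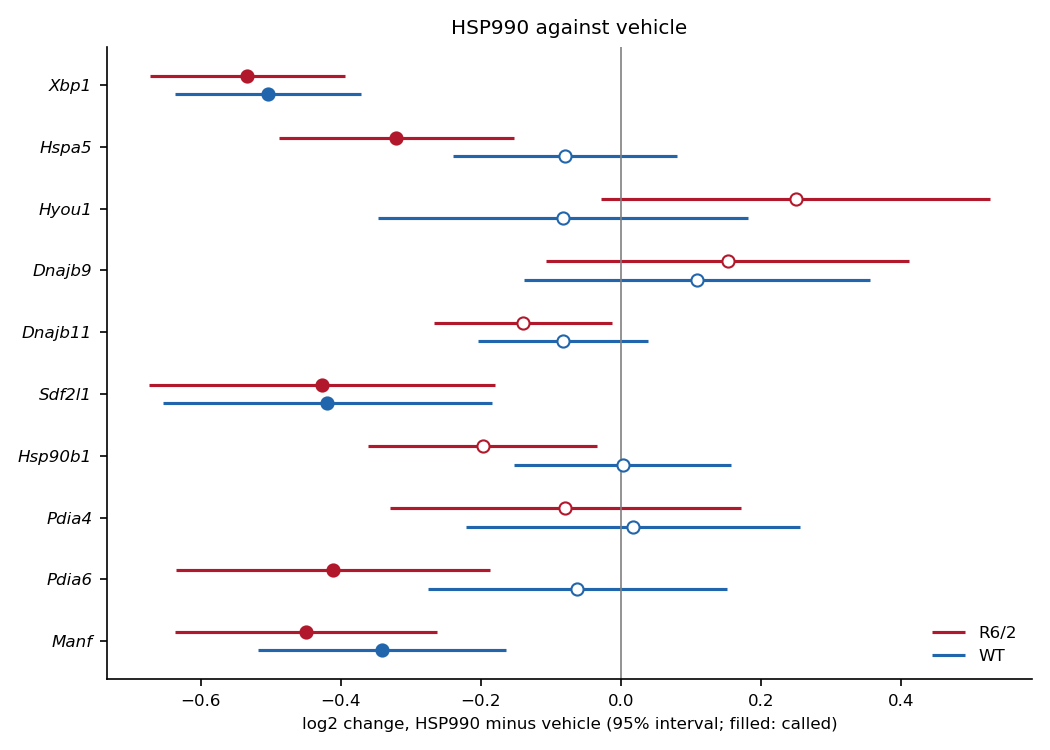
Log2 change of each gene, HSP990 minus vehicle (x axis), in R6/2 mice and in WT mice, with 95% intervals; filled points passed the test over all genes. Xbp1, Manf and Sdf2l1 are filled in both genotypes, Hspa5 and Pdia6 in R6/2 mice alone.

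Whether the response differed between genotypes was tested as an interaction in the same limma fit. Of the 10 genes, 0 were called, against 0.247% of all genes. At an unadjusted p under 0.05 there were 2, Pdia6 (difference of changes, R6/2 minus WT, -0.35, 95% interval -0.66 to -0.04, adjusted p = 0.324) and Hspa5 (-0.24, 95% interval -0.47 to -0.01, adjusted p = 0.368). Over all genes, 12.9% had an unadjusted p that low. So a call in R6/2 mice alone does not show a difference between the genotypes. For Xbp1 the difference was -0.03 (95% interval -0.22 to 0.16), for Sdf2l1 -0.01 (95% interval -0.35 to 0.33) and for Manf -0.11 (95% interval -0.37 to 0.15). Averaged over the genotypes, the same 5 genes as in R6/2 mice were lower, where 7.69% of all genes were called and 3.70% were called lower, and Pdia6 lay just under the threshold (-0.24 ± 0.08, adjusted p = 0.05 after rounding). That Pdia6 call was lost in 22 of the 32 fits without 1 array, with adjusted p up to 0.0977 (without R6/2 vehicle replicate 4), and over probe sets its adjusted p was 0.0541.

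The separate probe sets of Xbp1 shared their direction. All 4 had negative estimates in both genotypes, between -0.61 and -0.28 in R6/2 mice and between -0.50 and -0.24 in WT mice. Of these, 3 were called in R6/2 mice and 2 in WT mice. Hspa5 had 3 probe sets, and its second one also fell in R6/2 mice (-0.39 ± 0.11, adjusted p = 0.0496). The third gave -0.07 ± 0.07 (adjusted p = 0.706), and it carries the platform's suffix for probes shared with other sequences. The second one, and those that stood for Xbp1 and Hyou1, carry a further suffix for probes shared between transcripts. The part of such sharing was not tested. Pdia6 had a second, dim probe set with -0.25 ± 0.10 (adjusted p = 0.236) in R6/2 mice. For Hsp90b1 the second probe set was bright (mean 10.8) and had positive estimates with HSP990. They were 0.06 ± 0.10 in R6/2 mice (adjusted p = 0.849) and 0.21 ± 0.10 in WT mice (adjusted p = 0.259). Over all 20 probe sets, 7 were lower and 0 higher in R6/2 mice, where 2.52% of all single-gene probe sets were called, and 4 were lower in WT mice, where 5.26% were called. Adjusted over probe sets, Sdf2l1 in R6/2 mice had an adjusted p of 0.0527. Manf, Sdf2l1, Dnajb9 and Dnajb11 had a single probe set each.

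**Figure D3:**
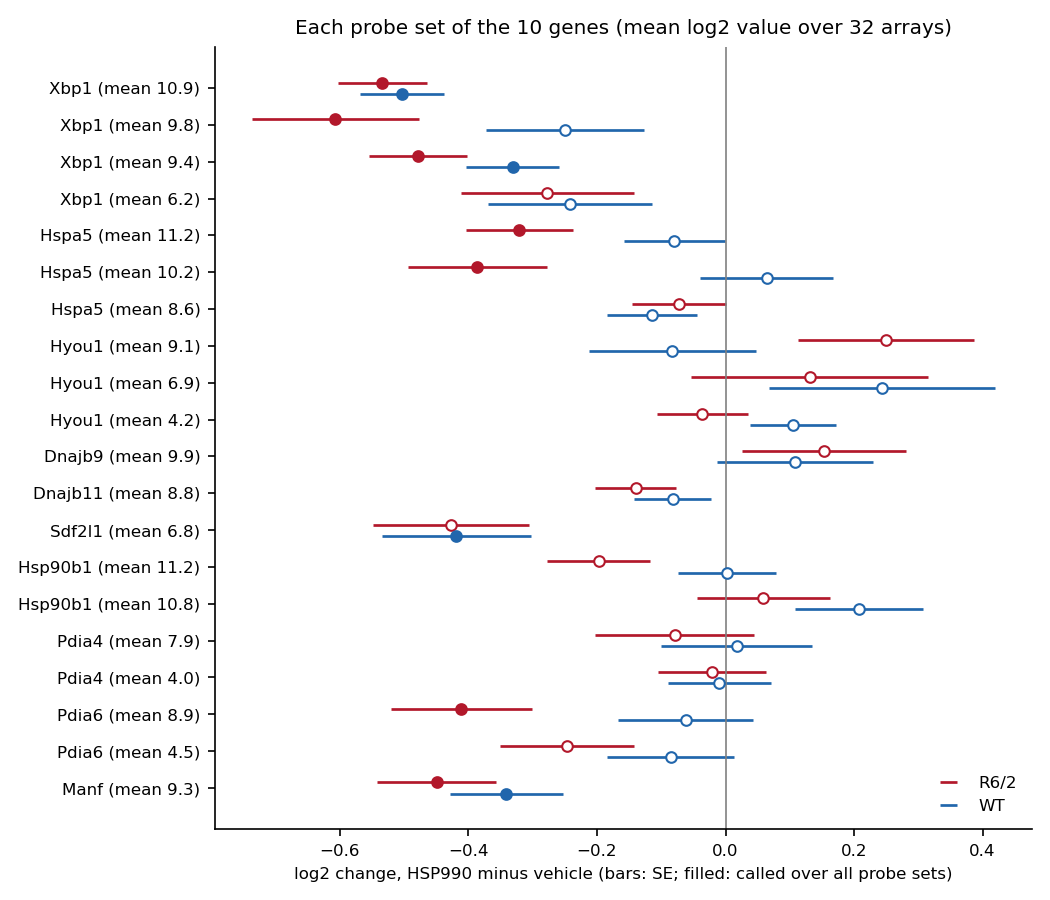
Log2 change of each of the 20 probe sets, HSP990 minus vehicle (x axis, bars are SE), in R6/2 and WT mice; rows give the gene and the mean log2 value of the probe set. The 4 Xbp1 probe sets all lie left of 0, while those of Hyou1, Hspa5 and Hsp90b1 are spread.

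R6/2 and WT mice on the same treatment also differed in some of these genes. Hspa5, Manf and Sdf2l1, which fell with HSP990 in R6/2 mice, were among them. On vehicle, Hspa5 and Manf were higher and Hyou1 lower in R6/2 mice, 3 of the 10 genes, where 21.5% of all genes were called and 9.60% were called lower. Hspa5 lay between 11.38 and 11.75 with a median of 11.50 in R6/2 mice on vehicle, against 10.84 to 11.50 with a median of 11.04 in WT mice on vehicle. The difference was 0.42 ± 0.09 (adjusted p = 0.000412), and its second probe set gave 0.52 ± 0.11 (adjusted p = 0.00113), while the third gave -0.01 ± 0.08. For Manf the values were 9.24 to 9.92 with a median of 9.72 in R6/2 mice on vehicle, against 9.11 to 9.64 with a median of 9.27 in WT mice on vehicle. It was higher by 0.39 ± 0.09 (adjusted p = 0.00301). Hyou1 lay between 8.65 and 9.21 with a median of 8.78 in R6/2 mice on vehicle, against 8.96 to 9.66 with a median of 9.24 in WT mice on vehicle. It was lower, with a difference of -0.42 ± 0.14 (adjusted p = 0.0301), and 5 of the 32 fits without 1 array lost this call, with adjusted p up to 0.0787 (without WT vehicle replicate 3). Its second probe set gave -0.47 ± 0.19 on vehicle (adjusted p = 0.0872) and was lower on HSP990 (-0.59 ± 0.17, adjusted p = 0.00781), where the first gave -0.09 ± 0.12 (adjusted p = 0.658).

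On HSP990, Manf was higher and Hsp90b1 and Sdf2l1 were lower in R6/2 mice than in WT mice, again 3 of 10, where 33.6% of all genes were called and 11.0% were called lower. On both treatments the share of the 10 genes called lies near the share over all genes. Manf differed by 0.28 ± 0.08 (adjusted p = 0.00931), a call lost with arrays centred on their median (0.19, adjusted p = 0.0972). Hsp90b1 lay between 10.77 and 11.16 with a median of 10.98 in R6/2 mice on HSP990, against 11.09 to 11.50 with a median of 11.27 in WT mice on HSP990. The difference was -0.29 ± 0.07 (adjusted p = 0.00238). Its second probe set was lower in R6/2 mice on both treatments, with differences of -0.48 ± 0.10 on HSP990 (adjusted p = 0.000178) and -0.33 ± 0.11 on vehicle (adjusted p = 0.028). Sdf2l1 gave -0.30 ± 0.11 (adjusted p = 0.0378), and the call was lost in 8 of the 32 fits without 1 array, at an adjusted p of 0.101 without R6/2 HSP990 replicate 5. The Sdf2l1 call was also lost with the 3′ bias as a covariate (-0.22, adjusted p = 0.164). Without both arrays of strong 3′ bias the difference was -0.24 (adjusted p = 0.104). On vehicle Sdf2l1 had a similar difference that was not called (-0.29 ± 0.13, adjusted p = 0.101), and it was called without R6/2 vehicle replicate 7 (-0.42, adjusted p = 0.0027). Hspa5 gave 0.18 ± 0.08 and missed the threshold (adjusted p = 0.0605), but it passed in 7 of 11 other settings and in 4 of the 32 fits without 1 array. Xbp1 was not called in either comparison, with differences of 0.09 (95% interval -0.04 to 0.22) on HSP990 and 0.12 (95% interval -0.02 to 0.26) on vehicle.

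**Figure D4:**
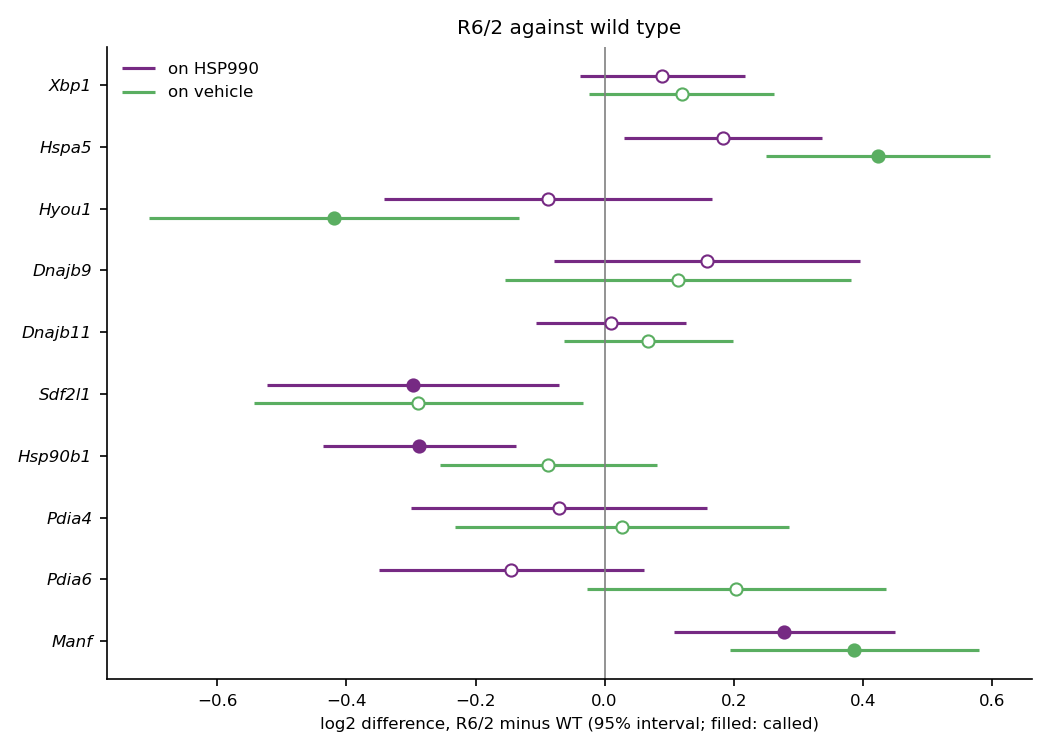
Log2 difference of each gene, R6/2 minus WT (x axis), on HSP990 and on vehicle, with 95% intervals; filled points passed the test over all genes. Manf is filled on the right on both treatments, and the other filled points differ between treatments.

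In these bulk samples, fewer cells of a type and less RNA per cell cannot be told apart. Of 11 medium spiny neuron markers measured, 10 were lower in R6/2 mice than in WT mice on each treatment, where 11.0% of all genes were called lower on HSP990 and 9.60% on vehicle. Their mean log2 level was 9.43 to 10.47 in R6/2 mice on HSP990, against 11.33 to 11.84 in WT mice on HSP990. It was 9.23 to 10.76 in R6/2 mice on vehicle, against 11.38 to 11.79 in WT mice on vehicle. Markers of other cell types were also called lower in R6/2 mice, in part. For astrocytes these were 5 of 8 on HSP990 (1 was higher) and 1 of 8 on vehicle, and for oligodendrocytes 4 of 7 on HSP990 and 1 of 7 on vehicle. For microglia they were 4 of 8 on HSP990 and 2 of 8 on vehicle, and for neurons in general 3 of 7 on each treatment, with 1 higher on vehicle. Choroid plexus markers, a tissue rich in secretory cells, varied widely between arrays, from 5.01 to 7.93 in R6/2 mice and from 5.08 to 9.14 in WT mice, and 0 of 11 were called in any of the 4 comparisons between groups. Their mean log2 level was 6.13 in R6/2 mice on HSP990, against 5.74 in R6/2 mice on vehicle, and 6.14 in WT mice on HSP990, against 6.73 in WT mice on vehicle. The part of these cells in the results was not tested.

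The order of the 4 groups differed from gene to gene. Xbp1, Dnajb11 and Manf shared 1 order, with WT HSP990 lowest, then R6/2 HSP990, WT vehicle and R6/2 vehicle highest. For Xbp1, both HSP990 groups and both vehicle groups were neighbours that did not pass the test of their difference. Hspa5 was ordered by genotype, with both WT groups below both R6/2 groups. R6/2 mice on vehicle had the highest mean for 6 of the 10 genes, and Pdia4 differed little between any of the groups, with means of 7.82 in R6/2 HSP990, 7.89 in R6/2 vehicle, 7.89 in WT HSP990 and 7.87 in WT vehicle.

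Once the group means were subtracted, some of the genes still varied together from array to array. Of the 45 gene pairs, 28 had a positive correlation over the 32 arrays, with a median r of 0.171. Pdia4 and Manf had the highest, r = 0.797 and Spearman's rho = 0.725 (permutation within groups, two-sided, adjusted p = 0.00045 and 0.00067 over the 45 pairs), and r was 0.721 without the 2 arrays farthest from the median. Dnajb11 and Pdia6 followed (r = 0.745, rho = 0.747, adjusted p = 0.00045 for both, 0.726 without 2 arrays). Both pairs were positive in each of the 4 groups. Hyou1 ran against Pdia4 (r = -0.611, rho = -0.658, adjusted p = 0.0035 and 0.0012, -0.577 without 2 arrays), with r between -0.794 and -0.602 within the groups. Xbp1, in contrast, had a mean r of -0.09 with the other 9 genes.

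The same deviations moved with the 3′ bias of the arrays. For Pdia4, r was -0.717 and rho -0.722 (permutation, adjusted p = 0.0002 and 0.0001 over 10 genes), and r was -0.751 without the 2 arrays of strong bias. Manf gave r = -0.59 (rho = -0.507, adjusted p = 0.0029 and 0.017, -0.512 without those 2) and Pdia6 r = -0.595 (rho = -0.468, adjusted p = 0.011 and 0.03, -0.459 without those 2). Dnajb11 gave r = -0.499 (rho = -0.469, adjusted p = 0.026 and 0.042, -0.392 without those 2). Dnajb9 gave rho = -0.394 (adjusted p = 0.044). Its r of -0.288 did not pass (adjusted p = 0.11) and was -0.589 without those 2. Hspa5 gave r = -0.381 (rho = -0.361, adjusted p = 0.058 and 0.074, -0.191 without those 2). Hyou1 ran the other way, with rho = 0.577 (adjusted p = 0.0088), while its r of 0.288 did not pass (adjusted p = 0.23) and was 0.609 without those 2. Xbp1 gave r = 0.324 (rho = 0.368, adjusted p = 0.19 and 0.07, 0.333 without those 2). The part of RNA quality in the gene pairs was not tested. The Hyou1 difference between R6/2 and WT mice on vehicle was called in each of the 11 other settings run, the bias as a covariate among them (adjusted p from 0.0121 to 0.0466).

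**Figure D5:**
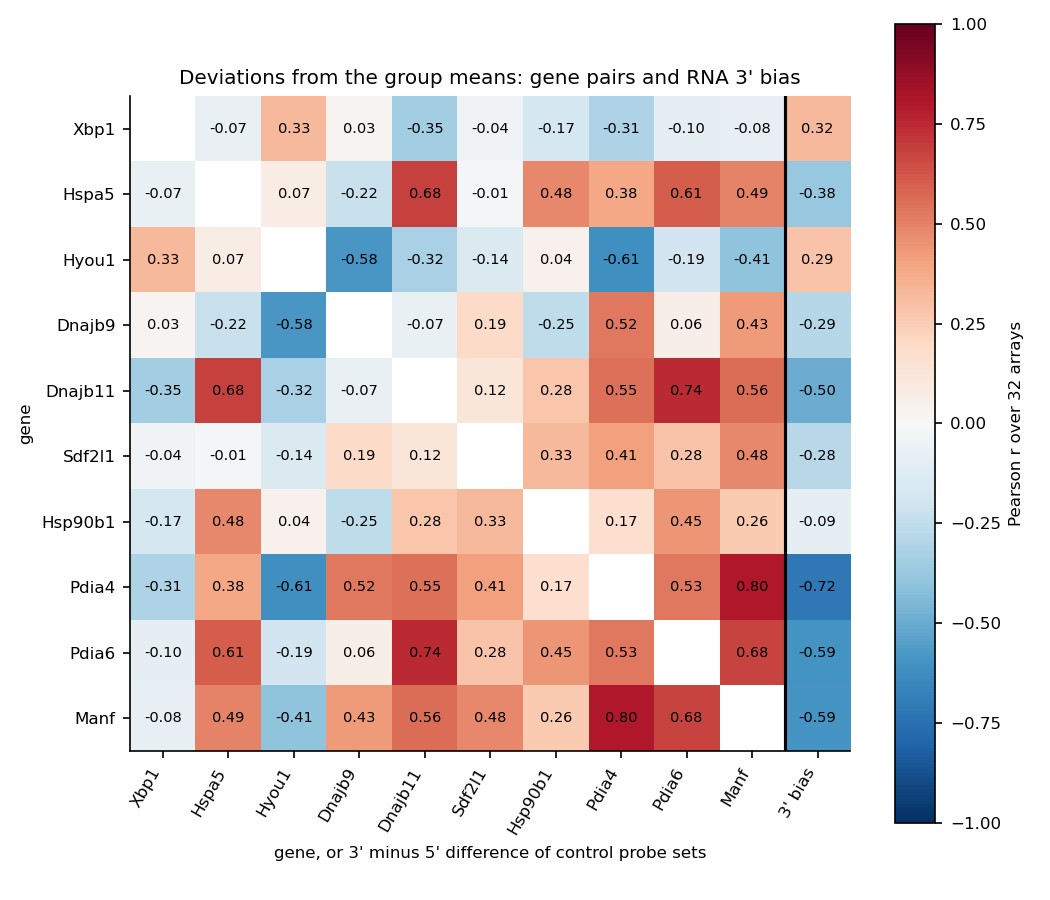
Pearson's r over 32 arrays between the deviations of each pair of genes from their group means, and, in the last column, with the 3′ bias; both axes list the genes and colour gives r. Pdia4, Pdia6, Manf and Dnajb11 form a block of positive values and have the most negative values with the 3′ bias.

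Outside the 10 genes, the genes whose deviations followed the mean deviation of the 10 most closely over the 32 arrays were Ebp (r = 0.687), which encodes a sterol isomerase, Kmt5a (r = 0.684), which encodes a histone methyltransferase, Phf23 (r = 0.677), Tmem11 (r = 0.665) and Brd1 (r = 0.659). In the array of largest 3′ bias of each group, that mean deviation, in SD units, lay below 0. It was -1.04 in R6/2 HSP990 replicate 5 and -0.90 in R6/2 vehicle replicate 1. In WT HSP990 replicate 5 it was -0.41, and in WT vehicle replicate 5 -0.25. The part of RNA quality in these correlations was not tested.

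Most other genes of the ER folding pathway were not called with HSP990. Of 42 measured other folding genes, 2 rose and 0 fell in R6/2 mice, where 2.18% of all genes were called higher. They were Cnpy4 (0.68 ± 0.10) and Tmx1, which encodes a thioredoxin-related membrane protein (0.53 ± 0.10). In WT mice the same 2 rose (0.59 ± 0.09 for Cnpy4 and 0.45 ± 0.09 for Tmx1), where 2.24% were called higher, and Sdf2, the relative of Sdf2l1, fell (-0.17 ± 0.05). The medians of this list were 0.02 in R6/2 mice and -0.03 in WT mice, beside 0.02 and -0.03 over all genes.

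Among 30 genes of ER-associated degradation, Syvn1, the gene of the ubiquitin ligase HRD1 (0.29 ± 0.07), and Nploc4, a cofactor of the segregase VCP (0.21 ± 0.06), rose in R6/2 mice. In WT mice Ubxn4 rose (0.42 ± 0.09) and Ube2j2, a ubiquitin-conjugating enzyme, fell (-0.20 ± 0.05). Of 53 genes of translocation, glycosylation and ER export, Sec22b, a SNARE of ER to Golgi transport (0.35 ± 0.07), and Srpr, the receptor of the signal recognition particle (0.39 ± 0.10), rose in R6/2 mice. In WT mice Ssr3 rose (0.26 ± 0.06), while Sec61b, a subunit of the translocon (-0.23 ± 0.05), and Lman1, a cargo receptor (-0.29 ± 0.06), fell. Beside these few calls, 2.18% of all genes were called higher and 0.918% lower in R6/2 mice. In WT mice the shares were 2.24% higher and 3.57% lower.

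Of 18 sensors and transcription factors of the ER stress response, 3 rose in R6/2 mice, where 2.18% of all genes were called higher and 0.918% lower. They were Nfya (0.77 ± 0.14), Nfyc (0.44 ± 0.12) and Ern1, the IRE1 gene (0.34 ± 0.09). Nfya and Nfyc encode subunits of NF-Y, the factor that binds CCAAT. In WT mice, where 2.24% of all genes were called higher and 3.57% lower, Nfya alone of the list was called (0.50 ± 0.14). The branch of PERK and ATF4, which acts when translation is curbed, rose in part, with 5 of 20 genes in R6/2 mice and 8 of 20 in WT mice, and 0 fell in either, to be read against the same shares over all genes. Chac1, an enzyme gene of glutathione breakdown, rose in both (0.92 ± 0.15 in R6/2 mice and 0.74 ± 0.14 in WT mice). So did Sesn2 (0.68 ± 0.11 in R6/2 mice and 0.40 ± 0.11 in WT mice), Mthfd2 (0.50 ± 0.09 in R6/2 mice and 0.30 ± 0.09 in WT mice) and Atf3 (0.35 ± 0.09 in R6/2 mice and 0.27 ± 0.08 in WT mice). Ppp1r15a was called in R6/2 mice (0.33 ± 0.08). Ddit3, the gene of CHOP (0.59 ± 0.08), Slc7a11 (0.55 ± 0.13), Atf4 (0.42 ± 0.10) and Trib3 (0.36 ± 0.08) were called in WT mice. The heat shock genes of the cytosol, known to respond to HSP90 inhibitors, rose in 15 of 22 cases in R6/2 mice, beside 2.18% of all genes, and in 17 of 22 in WT mice, beside 2.24%. Among them were Hspb1 (2.63 ± 0.12 in R6/2 mice and 2.75 ± 0.12 in WT mice) and Dnajb1 (1.45 ± 0.08 in R6/2 mice and 1.74 ± 0.08 in WT mice).

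Between genotypes, many of the other ER genes were higher in R6/2 mice. Of the 53 genes of translocation, glycosylation and export, 24 were higher and 0 lower on HSP990, where 22.6% of all genes were called higher, and 19 were higher and 1 lower on vehicle, where 11.9% were. Tram1, a translocon partner, was higher by 0.72 ± 0.08 on HSP990 and 0.67 ± 0.09 on vehicle, and Sec61b by 0.44 ± 0.05 on HSP990 and 0.32 ± 0.05 on vehicle. The list medians were 0.16 on HSP990 and 0.18 on vehicle, beside 0.04 and -0.01 over all genes. Of the 42 other folding genes, 18 were higher and 1 lower on HSP990, and 10 were higher and 3 lower on vehicle. Fkbp14, a prolyl isomerase gene, was higher by 0.87 ± 0.08 on HSP990 and 0.80 ± 0.09 on vehicle, and Hspa13, which encodes an HSP70 relative, by 0.65 ± 0.07 on HSP990 and 0.53 ± 0.08 on vehicle. Of the 30 degradation genes, 12 were higher and 2 lower on HSP990, and 10 were higher and 3 lower on vehicle, Edem3 by 0.54 ± 0.09 on HSP990 and 0.47 ± 0.10 on vehicle. Ern1 was higher in R6/2 mice on HSP990 (0.62 ± 0.08, adjusted p = 2.12e-07), one of 9 higher and 2 lower of the 18 sensors and factors there, and 4 were higher and 1 lower on vehicle. Among the 20 genes of the PERK and ATF4 branch, 5 were higher and 4 lower on HSP990, with Ddit3 at -0.67 ± 0.08, and 1 was higher and 2 were lower on vehicle. All these counts are to be read against the shares over all genes. Those were 22.6% higher and 11.0% lower on HSP990, and 11.9% higher and 9.60% lower on vehicle.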

How the data were processed

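Total RNA of mouse striatum was labelled with a 3′ in vitro transcription kit and hybridised to Affymetrix arrays, per the labels' protocols. The authors deposited 1 table of log2 values, a scale taken from their span of 2.15 to 14.7. Their normalization is not stated in the labels or headers. Probe sets were named from the platform's probe table: 34945 had 1 gene, 932 several and 9160 none, and 64 were controls. The 10 genes and all lists were chosen with earlier results of these data known.

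For each gene the single-gene probe set of highest mean over all arrays was used. limma 3.58.1 in R 4.3.3 fitted 4 group means over 32 arrays (lmFit and eBayes), with 6 contrasts and Benjamini-Hochberg adjustment over 18193 genes. Tested on simulated data with 50 genes set 0.5 apart (log2), the fit recovered 80% in R6/2 mice and 78% in WT mice, and at 0.25 it recovered 26% and 28%. Precision is limited by how many arrays there were. Named genes were the 10, plus, of each list, up to 4 called genes of smallest p (all where 5 or fewer were called). Some of those were left out of the text for length. Correlations used 100000 permutations within groups. The alternatives were quantile normalization, median centring, a filter on dim genes, the mean over probe sets, all probe sets, the compared groups alone, array weights, another variance model, a replicate block, the 3′ bias in the model and fits short of 1 array each. A fit without both arrays of strong 3′ bias was added after the data were seen. The probe sets carry no coordinates here, and proteins were not analysed here.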

Additional observations from a re-analysis of the deposited data

Results flagged for a closer look

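R6/2 vehicle replicate 1 stood apart from the other 6 arrays of its group at the low end for 3 genes. Its log2 value was 9.07 for Dnajb9, where the next lowest array had 9.76, 7.23 for Pdia4, where the next had 7.79, and 9.24 for Manf, where the next had 9.63. In each case the gap to the nearest array was over 0.57 of the range of the group. This array also had the largest 3′ bias of its group, a mean log2 gap of 2.11, against 0.78 to 1.13 in the other arrays of the group, and its part in these values was not tested. The check was made on 40 groups of arrays, 10 genes in 4 groups, and chance gives about 1 in 20 such gaps. The fit without this array is among the fits without 1 array, which are given below as ranges. Over those 32 fits, the change with HSP990 in R6/2 mice ran from 0.02 to 0.21 for Dnajb9. It ran from -0.19 to -0.02 for Pdia4 and from -0.53 to -0.40 for Manf, whose call held.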

How the results depend on the processing

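Over the fits that changed 1 setting or left out 1 array, no direction reversed for any call. Of the 5 genes lower in R6/2 mice, 3 were called with the compared groups alone, 2 with the 3′ bias as a covariate and 3 without both arrays of strong 3′ bias (added after the data were seen), and between 2 and 5 with 1 array left out. The lowest count came on leaving out replicate 5 of R6/2 HSP990, and likewise replicate 3 of R6/2 vehicle. In WT mice, 1 of the 3 was called with arrays centred on their median, and 2 to 3 with 1 array left out. The counts were 4 to 5 averaged over genotypes, 2 to 4 between genotypes on each treatment and 0 for the interaction in every fit without 1 array. Xbp1 passed in every fit of both genotypes. Hspa5 between genotypes on HSP990 passed in 7 of 11 other settings, with adjusted p from 0.0137 to 0.389. The deviations of same-numbered arrays of different groups correlated at r of -0.292 to 0.377 (43 pairs, median 0.0711, 19 over 0.1). Whether the numbers pair arrays was not tested, and the main fit used no pairing. A replicate block gave counts of 5, 3, 5, 4, 3 and 0 for the 6 comparisons, the 4 with Hspa5 added on HSP990 (0.21, adjusted p = 0.0296). Over all genes, the 563 called in R6/2 mice became 202 with the compared groups alone, 368 with the covariate, 880 of all probe sets and 309 to 1043 without 1 array. In WT mice 1056 became 655 with the block, 1815 with array weights and 1838 of all probe sets. Over all probe sets 2474 were called averaged over genotypes (1399 genes), 10428 on HSP990 (6108 genes) and 5968 on vehicle (3906 genes). The 45 of the interaction became 80 with probe sets averaged, 73 of all probe sets, 150 with array weights, 23 with the block, 16 with the covariate, 25 without both arrays of strong bias and 30 to 182 without 1 array. The cause was not tested where neither fewer arrays nor more features enter.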

Other observations

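Relatives of the ER chaperones that work in other compartments gave other values with HSP990. Hsp90aa1, an HSP90 gene of the cytosol, rose in WT mice (0.54 ± 0.07, adjusted p = 9.24e-07) and gave 0.24 ± 0.07 in R6/2 mice (adjusted p = 0.0535). Hsp90ab1, also of the cytosol, was not among the genes fitted. Trap1, the HSP90 gene of mitochondria, gave -0.02 ± 0.07 in R6/2 mice and -0.07 ± 0.07 in WT mice (adjusted p = 0.955 and 0.644). Hspa9, the HSP70 gene of mitochondria, rose by 0.33 ± 0.07 in R6/2 mice (adjusted p = 0.00578) and by 0.34 ± 0.07 in WT mice (adjusted p = 0.00133). Hspa8, the constitutive HSP70 gene of the cytosol, rose by 0.21 ± 0.06 in R6/2 mice (adjusted p = 0.0438) and by 0.35 ± 0.06 in WT mice (adjusted p = 0.00012). Hspa1a, whose probes may also bind RNA of its near-identical copy Hspa1b, rose by 3.70 ± 0.20 in R6/2 mice and by 5.31 ± 0.19 in WT mice (adjusted p = 1.47e-14 and 1.31e-19). All adjusted p-values are limma's, and differences between these genes and those of the ER were not tested.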
